A study of Mus musculus with 18 samples.

Results

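The comparison described here set the CD25-positive fractions of a mouse lymphoma, DN2 and DN3, against its CD25-negative fractions, DN1 and DN4. It used 12 of the 18 arrays of the series, 6 from CD25-positive gates and 6 from CD25-negative gates, with 3 arrays for each of the 4 fractions. The arrays were chosen by the fraction named in their titles, and no measured value entered the choice. The lymphomas arose in the thymus of Lck-Cre transgenic mice that had been sublethally irradiated and given bone marrow infected with a retrovirus. The retrovirus carried NPM-ALK, a fusion kinase found in anaplastic large cell lymphoma, for expression in early T cells, where the Lck promoter drives the Cre recombinase. All 12 samples share this genotype and treatment, and all came from moribund mice, whose age is not given in any other way.

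The labels conflict on the animals. The text of the 9 DN1, DN2 and DN3 arrays names a dose of 4 Gy, while that of the 3 DN4 arrays names no dose. The same text of all 12 arrays names aged wild-type mice, against the Lck-Cre transgene given as their genotype, and that of the other 6 arrays names an aged NIPA knockout. The dose text therefore differs between DN4 and the other fractions, and its part in a result was not tested. The labels name 3 lymphomas and 3 replicate numbers but do not tie a number to 1 animal, so p-values measure the spread between these samples. The remaining 6 arrays, of a common lymphoid progenitor fraction (CLP) of the lymphomas and of LSK cells from bone marrow of wild-type mice aged 18 months, were not in the fit and are given as levels only. Arrays of the same DN fraction correlated at 0.982 to 0.993, and array medians lay between 5.43 and 5.53 on the log2 scale. The 95th percentile of 1105 olfactory receptor genes, which blood cells barely express, was 5.44 to 5.71 and gauges background.

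CD25 is the alpha chain of the interleukin-2 receptor, which joins the beta and gamma chains to form the high-affinity receptor. In the normal thymus, CD25 appears as a progenitor commits to the T lineage and is lost after the pre-T cell receptor signals. By the usual definition DN1 cells are CD44-positive and CD25-negative, DN2 cells carry both markers, DN3 cells have lost CD44 and kept CD25, and DN4 cells have lost both. The fractions thus hold CD25 in the middle of the order, so that a gene which climbs or falls steadily from DN1 to DN4 does not differ between the CD25-positive and CD25-negative means. This reading also gives a pair on each side of CD44. DN2 against DN1 and DN3 against DN4 share no array, and by this definition each differs in CD25 within 1 CD44 gate. Cd44 RNA itself was not level between DN1 and DN2, as given below.

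Il2ra, which encodes CD25 and lies on chromosome 2, followed the gates. Its log2 signal was 8.92, 8.88 and 9.32 in DN1, 11.81, 11.86 and 11.76 in DN2, 12.14, 11.87 and 12.05 in DN3, and 8.66, 8.61 and 8.85 in DN4. Every CD25-positive array lay above every CD25-negative array. The difference was 3.04 (SE 0.112, limma adjusted p = 1.08e-07), which is 8.22-fold. It was 2.77 between DN2 and DN1 and 3.31 between DN3 and DN4, a check of the sort that is no finding. Il2ra was not silent in the CD25-negative gates, since DN1 averaged 9.04 and DN4 8.71, well above the background gauge. CLP arrays read 8.38, 8.09 and 8.46.

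The other sort markers placed the fractions along the other axis. Cd44, the adhesion receptor used in the sort, averaged 6.64 in DN1, 5.95 in DN2 and 4.67 in DN3, and 4.70 in DN4, and DN3 and DN4 lay below the background gauge. Kit, the stem cell factor receptor, averaged 10.77, 10.68, 8.06 and 8.20 in the same order. Neither passed the limma test for the CD25 gate (adjusted p = 0.263 and 0.876), which does not show equal levels. The Cd44 difference was -0.36, and its unadjusted limma interval of -0.62 to -0.11 lay wholly on the negative side. The Kit difference was -0.11, with an interval of -0.33 to 0.11. The CD25 contrast was thus not shown to be balanced for Cd44 RNA. Cd44 was lower in DN2 than in DN1, by -0.70 (adjusted p = 0.0177), against -0.03 between DN3 and DN4, and the test of the difference between these values gave an adjusted p of 0.357. Il7r, the interleukin-7 receptor, averaged 9.75 in DN1 against 8.64 in DN2, but 8.86 in DN3 against 8.51 in DN4. Its differences themselves differed by -1.46, which passed the test (adjusted p = 0.000472).

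**Figure D1:**
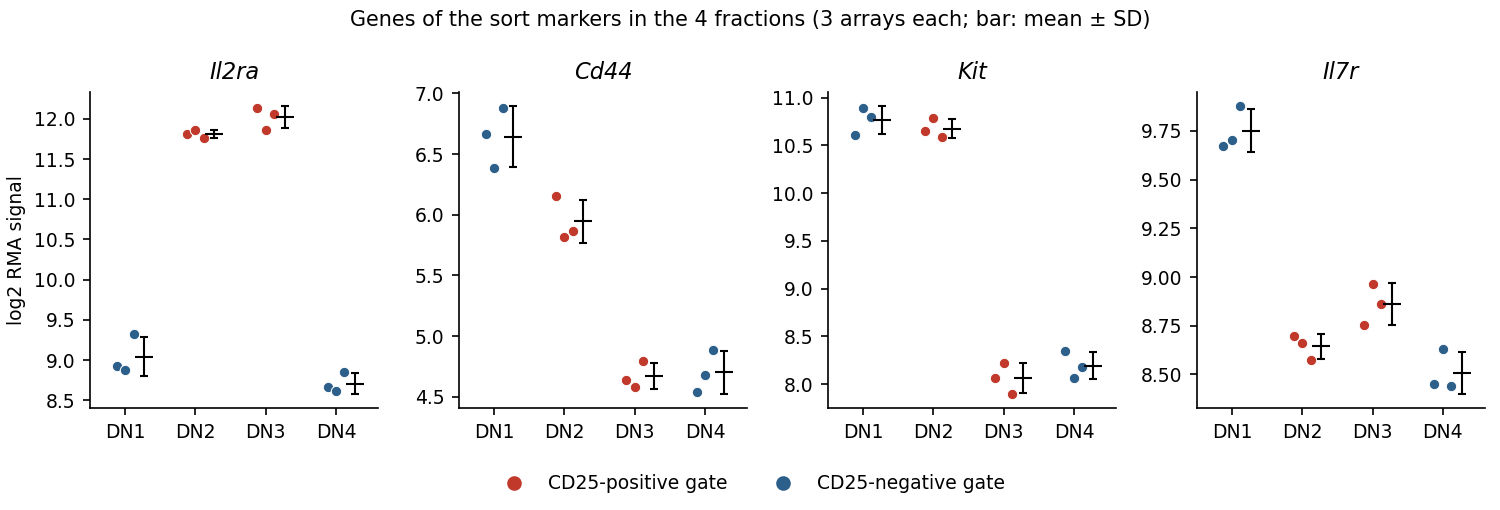
Log2 RMA signal of Il2ra, Cd44, Kit and Il7r in the 3 arrays of each fraction, with red points for CD25-positive gates, blue points for CD25-negative gates and a bar for the mean ± SD. Il2ra is high in the middle fractions, while Cd44 and Kit drop between DN2 and DN3.

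Beyond Il2ra, the genes that were higher in the CD25-positive gates in every array included many genes of DNA replication, chromosome segregation and DNA repair. Proliferating cells copy their DNA in S phase with replication enzymes and newly made histones, and divide in mitosis under kinases such as Cdk1 and Aurkb. In developing T cells division is tied to stages of the DN series. Of 22180 genes tested with limma on the means of the 3 replicate numbers, 175 (0.789%) passed an adjusted p under 0.05, 112 higher (0.505%) and 63 lower (0.284%) in the CD25-positive fractions. The median difference over all genes was 0.0066. With quantile normalization the called genes divided into 83 higher and 81 lower. With the replicate number as a block 504 genes were called, 357 higher and 147 lower, and all 175 were among them.

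The number of calls depended on each replicate. Leaving out 1 replicate number on 1 side gave 39 to 137 called genes, with the fewest without CD25-negative replicate 2, then 55 without CD25-positive replicate 3, 64 without CD25-negative replicate 1, and 82 and 93 without CD25-positive replicates 1 and 2. A stricter reading asks that no CD25-positive array overlaps any CD25-negative array. All 6 CD25-positive arrays lay above the other 6 for 119 genes (0.537%) and below them for 25 (0.113%). Both criteria together left 49 genes higher (0.221%), or 48 without Il2ra, and 2 lower (0.00902%). With the block, 84 genes met both.

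Promoters of Il2ra, Cdk1 and H2bc12 are shown because the 48 genes moved together, and because genes of S phase and mitosis are known to share promoter elements. Of the promoters described here Cdk1 and H2bc12 held the most of the words searched, so they do not stand for the 48. Each is the 250 bases before the RefSeq transcription start (GRCm38.p6), 5′ to 3′ on the gene's strand, with matches in capitals. Il2ra lies at chr2:11642542-11642791 on the plus strand, Cdk1 at chr10:69352913-69353162 on the minus strand, and H2bc12, a replication-type histone H2B gene, at chr13:22035571-22035820 on the plus strand.
Il2ra: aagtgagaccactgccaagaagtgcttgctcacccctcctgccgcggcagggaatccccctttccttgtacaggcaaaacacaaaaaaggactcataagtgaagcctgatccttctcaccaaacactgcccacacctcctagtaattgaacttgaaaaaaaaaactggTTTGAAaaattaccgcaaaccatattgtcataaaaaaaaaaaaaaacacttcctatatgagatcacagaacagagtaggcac
Cdk1: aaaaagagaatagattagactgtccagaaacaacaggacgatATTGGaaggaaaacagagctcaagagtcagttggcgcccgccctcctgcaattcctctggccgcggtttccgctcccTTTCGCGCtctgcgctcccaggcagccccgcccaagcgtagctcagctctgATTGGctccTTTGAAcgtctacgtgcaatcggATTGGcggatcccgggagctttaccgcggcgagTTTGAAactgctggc
H2bc12: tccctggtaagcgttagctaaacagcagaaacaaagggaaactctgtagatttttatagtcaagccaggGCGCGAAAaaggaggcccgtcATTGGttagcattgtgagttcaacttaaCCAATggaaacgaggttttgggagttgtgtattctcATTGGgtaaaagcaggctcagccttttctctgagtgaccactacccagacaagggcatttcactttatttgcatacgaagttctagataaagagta
The capitals mark words for the E2F site (TTTGGCGC, TTTCCCGC, TTTGCCGC or TTTCGCGC), the cell cycle homology region, or CHR (TTTGAA or TTCGAA), and the CCAAT box (CCAAT), on either strand. These words do not overlap one another in the 3 promoters. Cdk1 held all 3 kinds, with its CHR words 71 and 15 bases before the start, H2bc12 held an E2F word and 3 CCAAT boxes, and Il2ra held a single CHR word, 82 bases before the start. The promoters of Cdc6 and Plk1, also among the 48, were read in the same way. Cdc6 held 1 E2F word, 138 bases before the start, and Plk1 a single CCAAT box, 14 bases before it.

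Of the 48 genes, 44 had a RefSeq promoter in the table, as did 16990 of all genes tested. A gene counted if any of its listed promoters held a word, so a gene with several had more room for a match. An E2F word was found for 4 of the 44 genes (9.09%) and for 2.7% of the 16990, and a CCAAT box for 26 (59.1%) against 38.7%. CHR words were found in 9 of the 44 (20.5%) against 17.5%. A match describes the sequence and does not show that a factor binds there.

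The largest rise among the 48 was that of H2bc12. Its signal was 8.55, 8.18 and 7.28 in DN1, 9.31, 9.20 and 9.23 in DN2, 9.31, 9.35 and 9.52 in DN3, and 8.45, 8.72 and 8.35 in DN4. The lowest CD25-positive array was thus above the highest CD25-negative one, and DN1 replicate 3 stood lowest. The difference was 1.07 (SE 0.158, adjusted p = 0.0112, limma), or 2.09-fold. Further histone genes were called higher, namely H4f16 (0.85), H2ac21 (0.79), H1f1 (0.94) and H2bc18 (0.60), the last 2 with overlap between arrays. Histone genes are near-identical copies, so a probe set cannot be assigned to 1 gene with certainty. The second probe sets of H4f16 and H2ac21 differed by 0.385 and -0.021, the latter at a mean of 4.50, which is below background.

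Rad51ap1, a gene of DNA break repair, rose by 0.89 (SE 0.111, adjusted p = 0.00494). Its signal was 6.68, 6.61 and 6.57 in DN1, 7.48, 7.72 and 7.96 in DN2, 7.70, 8.14 and 7.83 in DN3, and 7.16, 7.17 and 7.26 in DN4. Each fraction held together, with DN4 between DN1 and the CD25-positive fractions. Other genes of recombination and repair among the 48 were Rad54l (0.76), Exo1 (0.73), Brca1 (0.73), Rpa2 (0.63), Neil3 (0.54) and Recql4 (0.53). Brca1, which acts in the same repair, read 5.83, 5.87 and 6.31 in DN1 and 5.83 to 6.17 in DN4, against 6.65 to 6.92 in DN2 and 6.51 to 7.06 in DN3.

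Cdk1, the kinase that starts mitosis, read 9.11, 8.83 and 8.21 in DN1, 9.57, 9.82 and 10.07 in DN2, 9.64, 9.91 and 9.67 in DN3, and 9.01, 9.09 and 9.22 in DN4. All CD25-positive arrays were above all CD25-negative ones. The difference was 0.87 (SE 0.12, adjusted p = 0.00824). Tk1, the thymidine kinase that supplies dTTP in S phase, was 8.08 in DN1, 9.20 in DN2 and 9.21 in DN3, and 8.63 in DN4 (difference 0.85, adjusted p = 0.00738). Aurkb, the kinase of the chromosome passenger complex, was 9.12, 10.25, 10.07 and 9.54 in the same order (difference 0.83, adjusted p = 0.0112).

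The rest of the 48 rose by 0.52 to 0.80 and included genes of the kinetochore (Cenph, Cenpk, Cenpo, Ska3, Bub1), of condensin (Ncaph, Ncapg2), of the mitotic kinases (Plk1, Plk4, Aurka, Haspin) and of origin licensing and its checkpoint (Cdc6, Clspn). The transcription factors E2f8 (0.71) and Mybl2 (0.69), both active in the cell cycle, were also among them. Of the 48 genes, 11 stand in the lists of replication or mitosis genes used here and 37 in neither. When 1 replicate number on 1 side was left out, 9 to 28 of the 48 were still called. Their differences stayed positive, which the choice of genes without overlap fixes in advance. H2bc12, Rad51ap1, Cdk1, Tk1, Aurkb, H2ac21 and Exo1 were called in all 6 such fits, with a highest adjusted p of 0.0487.

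**Figure D2:**
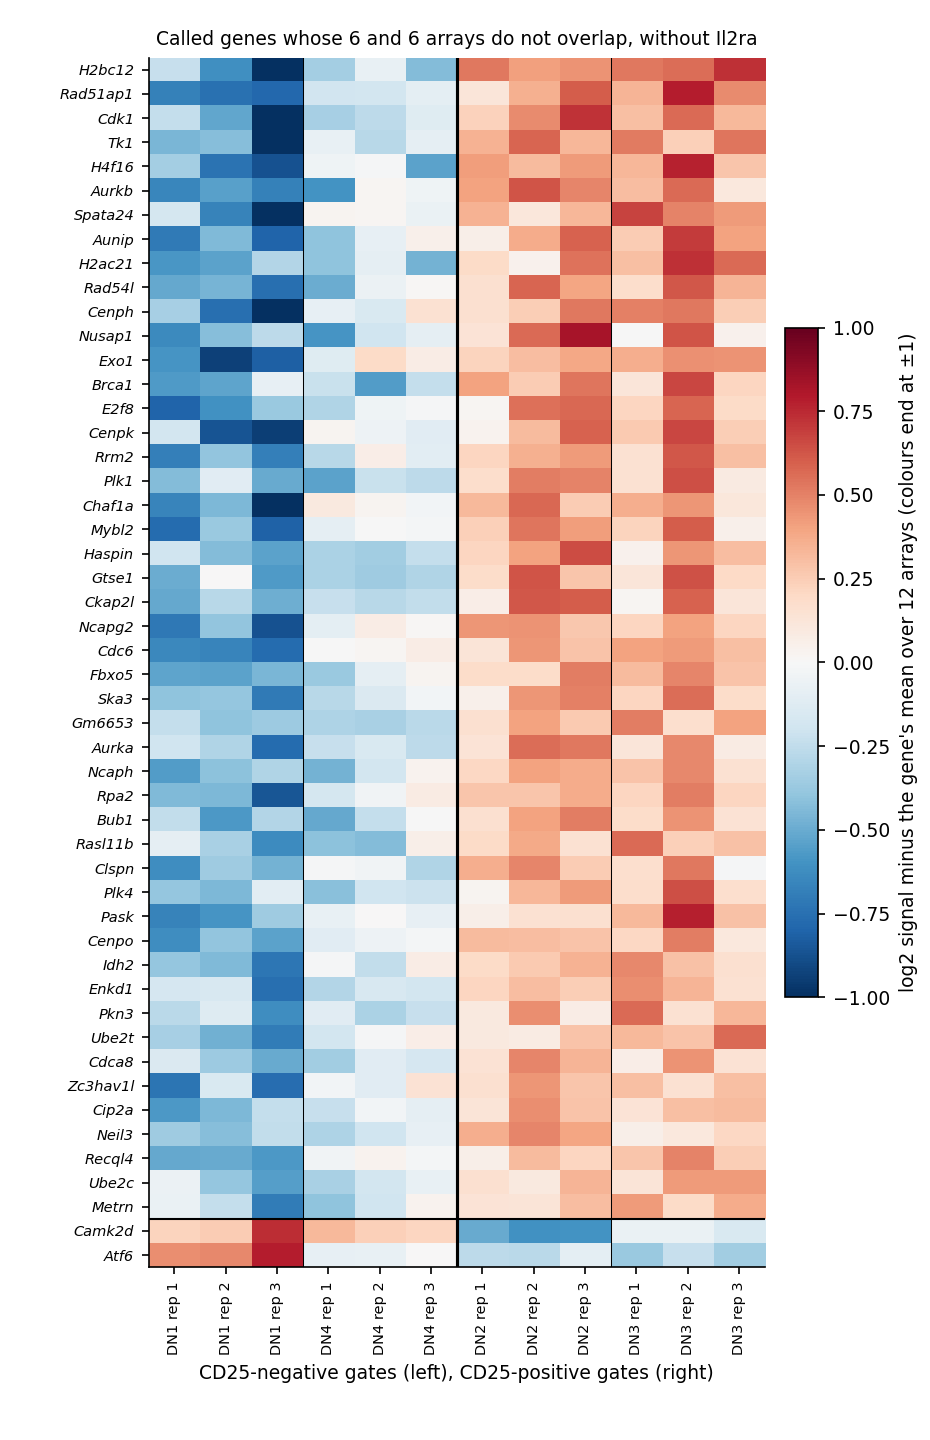
Log2 signal of the 48 genes that were higher and the 2 that were lower, each as its deviation from the gene's mean over 12 arrays, with CD25-negative arrays on the left and CD25-positive arrays on the right. The deepest blue is in DN1, and DN4 arrays are paler, nearer the gene's mean.

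Both criteria found only Camk2d and Atf6 lower. Camk2d, a calcium-dependent kinase, read 8.02, 8.05 and 8.53 in DN1, 7.29, 7.19 and 7.19 in DN2, 7.73, 7.73 and 7.64 in DN3, and 8.12, 8.03 and 8.01 in DN4. The CD25-negative fractions were alike and DN2 was lowest. It fell by 0.66 (SE 0.101, adjusted p = 0.0134). Atf6, a transcription factor of the unfolded protein response, fell by 0.52 (adjusted p = 0.0339), with 10.20 in DN1, 9.41 in DN2 and 9.31 in DN3, and 9.57 in DN4. Camk2d was called in 4 of the 6 fits that left out a replicate and Atf6 in none of them, where its highest adjusted p was 0.134.

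The lists of cell cycle genes gave the same picture across named pathways. Of 26 measured DNA replication genes, 13 were called higher and 0 lower, against 0.505% and 0.284% of all genes. Their median difference was 0.59, and all 26 had an unadjusted p under 0.05, as did 1893 (8.53%) of the 22180 genes. The called members were Gins2 (0.94), Gins1 and Cdc45 of the replicative helicase, its subunit Mcm5 (0.76), Cdc6, the clamp loader subunit Rfc3, the nucleotide enzymes Tk1, Rrm1, Rrm2 and Tyms, the chromatin factors Uhrf1 and Chaf1a, and the primase Prim1. Mcm4, E2f1 and Pcna, the sliding clamp of DNA polymerase, differed by 0.46, 0.46 and 0.44 (adjusted p = 0.0532, 0.0639 and 0.0639). With the block 24 of the 26 were called. Leaving out 1 replicate number on 1 side left 4 to 7, the fewest without CD25-negative replicate 2.

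Of 25 measured mitosis genes, 9 were called higher and 0 lower, against 0.505% and 0.284% of all genes, with a median difference of 0.52. The 9 were Cdk1, Aurkb, Aurka, Plk1, Bub1, Ttk and Nusap1, which act on the spindle and its checkpoint, Kif23 of cytokinesis, and Ube2c, which marks mitotic cyclins for destruction. With the block 20 were called, and 2 to 6 after 1 replicate number on 1 side was left out. Mki67, the usual marker of proliferating cells, differed by 0.41 (adjusted p = 0.114, and 0.0339 with the block) and overlapped between gates, with 10.08 in DN1, 10.66 in DN2 and 10.27 in DN3, and 10.03 in DN4. Ccnb2 differed by 0.12 (adjusted p = 0.891), so not every member moved.

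The mean level of each list separated the gates in single arrays. For the replication genes it was 8.97 to 9.33 in the CD25-positive arrays and 8.08 to 8.88 in the CD25-negative arrays. DN1 made up the lower end, at 8.08 to 8.28, and DN4 sat close below the CD25-positive arrays, at 8.82 to 8.88. For the mitosis genes the range was 8.498 to 9.001 against 8.09 to 8.39, with DN1 at 8.16 to 8.25 and DN4 at 8.09 to 8.39. DN4 thus ranked near DN2 and DN3 by replication genes and near DN1 by mitosis genes. CLP arrays, where Il2ra was lowest, had replication levels of 9.05 to 9.26, in the range of the CD25-positive arrays, and LSK arrays had 7.92 to 8.35. In sorted bulk RNA, a smaller share of dividing cells and less RNA of these genes per cell cannot be told apart.

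**Figure D3:**
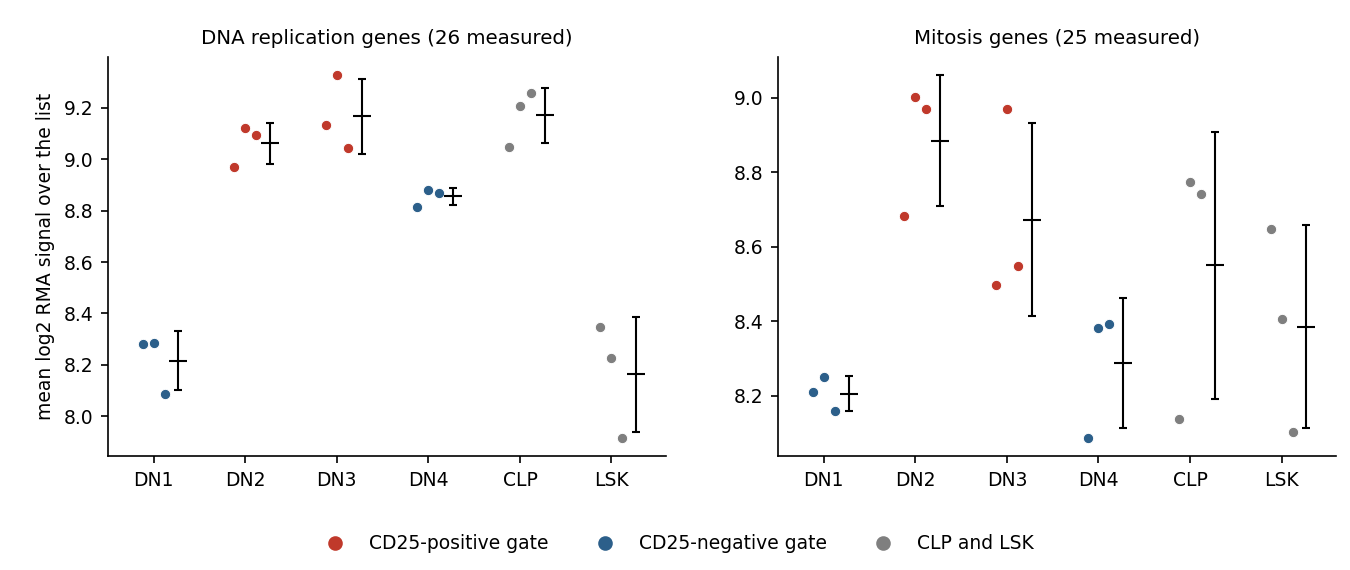
Mean log2 RMA signal of 26 DNA replication genes and 25 mitosis genes in each array, by fraction, with red for CD25-positive gates, blue for CD25-negative gates, grey for CLP and LSK, and a bar for the mean ± SD of 3 arrays. CD25-positive arrays lie above CD25-negative arrays in both panels, and DN4 is closer to them for replication than for mitosis genes.

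The pairs of fractions ask whether a difference is found on each side of CD44. On the CD44-positive side, DN2 against DN1, 537 genes (2.42%) were called, 304 higher (1.37%) and 233 lower (1.05%) in DN2. This count was 282 without DN2 replicate 2, and again 282 without DN2 replicate 3. On the CD44-negative side, DN3 against DN4, a single gene (0.00451%) was called, and this was Il2ra (adjusted p = 1.53e-09). A total of 1209 genes had an unadjusted p under 0.05 there, and the median SE was 0.148. The lowest adjusted p after Il2ra was 0.112. The pairs share no array, but a call on 1 side and none on the other does not show that the sides differ.

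The difference between the sides was therefore tested itself. It was called for 90 genes (0.406%), 19 with the larger value on the CD44-positive side and 71 with the smaller, and for 0 of the 48 genes that went with CD25 in every array. Among the 48, DN2 exceeded DN1 by 0.53 to 1.24 (median 0.83, 43 called), and DN3 exceeded DN4 by 0.25 to 0.89 (median 0.51). None of the 48 was called in DN3 against DN4 by limma, with adjusted p from 0.207 to 0.927, while 44 had an unadjusted p under 0.05. These genes had been selected on the sum of both differences and on no overlap of the arrays, so their shared sign describes the selection. The 0 of 48 for the difference between the sides is no result about them either. That selection requires a rise on both sides, and only 0.406% of all genes were called. H2bc12 gives the width of the intervals, with a 95% interval of 0.41 to 1.37 in DN3 against DN4 and 0.76 to 1.72 in DN2 against DN1.

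The list genes were not filtered on these values, but the lists were chosen with earlier results of these data known. Of the 48 genes, 11 are also list members, so the lists are no independent check. Of the 26 replication genes, 23 were called higher in DN2 than in DN1 (median 0.86), and all 26 were higher in DN3 than in DN4 by 0.01 to 0.61 (median 0.33). None passed the limma test in that pair, and 13 had an unadjusted p under 0.05. Of the 25 mitosis genes, 14 were called higher in DN2 (median 0.69), and all 25 were higher in DN3 than in DN4 by 0.02 to 0.64 (median 0.40), again with 0 called and 13 under an unadjusted p of 0.05. Over all genes, 50.8% were higher in DN3 than in DN4, with a median of 0.0029. The difference between the sides was called for no member of either list by limma, the lowest adjusted p being 0.173 and 0.345, although 25 of 26 and 23 of 25 had the larger value on the CD44-positive side.

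The direction of every gene called between DN2 and DN1 was also read in the other pair. Of the 304 higher in DN2, 258 (84.9%) were also higher in DN3 than in DN4, against 50.8% of all genes. Of the 233 lower in DN2, 124 (53.2%) were also lower in DN3, against 49.2% of all genes. Across all genes the correlation of both differences was 0.169, a description over genes that are not independent replicates.

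**Figure D4:**
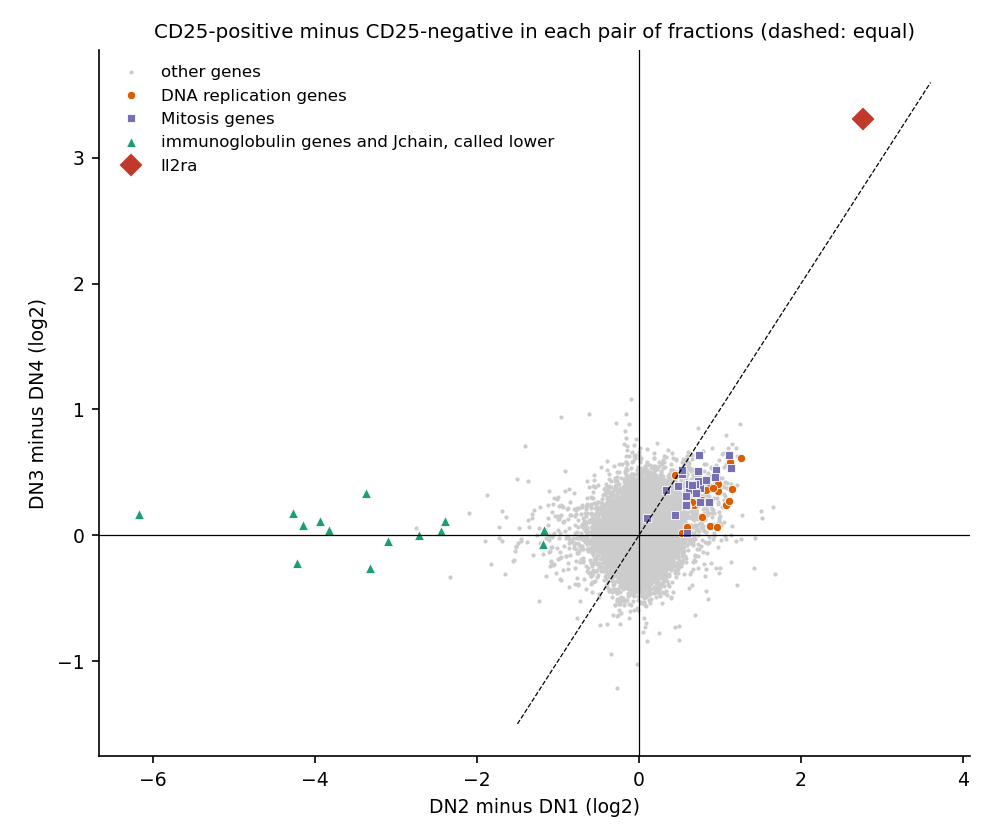
Each point is a gene, with DN2 minus DN1 on the horizontal axis and DN3 minus DN4 on the vertical axis, both log2, and a dashed line where they are equal. Il2ra stands alone at 2.77 and 3.31, the replication and mitosis genes lie above 0 on both axes, and immunoglobulin genes spread far to the left at a vertical value near 0.

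In DN3 against DN4 the genes next to Il2ra by p are named because they were seen to stand there. Ifitm3, an interferon-induced membrane protein, read 8.06, 7.87 and 8.18 in DN3 and 6.99, 6.87 and 7.35 in DN4, a difference of 0.97 (adjusted p = 0.112, and 0.0398 with the block). With the block Ifitm3 and Il2ra were the 2 called genes. Ccnd2, the D-type cyclin of early cell cycle entry, read 8.55, 8.69 and 8.49 in DN3 and 7.79, 7.78 and 7.85 in DN4 (difference 0.77, adjusted p = 0.175). Cdkn1a, the cell cycle inhibitor p21, was also higher in DN3, by 0.90 (adjusted p = 0.178). Il15ra, the interleukin-15 receptor chain related to CD25 and a gene on the same chromosome, ran the other way. It read 7.91, 7.82 and 8.04 in DN3 and 8.77, 8.61 and 8.54 in DN4 (difference -0.72, adjusted p = 0.207). Without DN1 replicate 3, whose spread enters the shared variance, 5 genes were called in this pair, namely Il2ra, Ccnd2, H2bc12, Ifitm3 and Ms4a6b. Beside Il2ra, Ces2g was called without DN3 replicate 1, Mirlet7c-2 without DN3 replicate 2 and Ifitm3 without DN4 replicate 3.

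The DN1 to DN4 order gave more calls than CD25, also with both read from 12 arrays in 1 model. In that model a slope per step from DN1 to DN4 was called for 2170 genes (9.78%), 1183 rising and 987 falling. The CD25 contrast called 372 genes there. The 175 genes come from the other fit, on means per replicate number, so 2170 and 175 are not counts of like tests. Of the 175 genes called for CD25, 121 were also called for the order. Of the 48 genes without overlap, 14 were, and Plk1, Bub1 and Nusap1 had slopes of -0.01, 0.03 and 0.02 per step. The order was called for 18 of 26 replication genes, all rising, and for 1 of 25 mitosis genes. A missed threshold does not show that a gene lacks a slope.

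DN1 was the extreme fraction for most called genes. Of the 112 genes called higher in the CD25-positive fractions, 109 had their lowest mean in DN1. Of the 63 called lower, 59 had their highest mean in DN1, and for 49 DN1 exceeded each other fraction by more than 1. The difference between the sides was called for 40 of these 63 genes and for 10 of the 112. A call in the CD25 contrast can thus come from DN1 alone. Without DN1 the contrast of DN2 and DN3 with DN4 called 315 genes, of which 37 were among the 175, and 1 replication and 3 mitosis genes. Without DN2, DN3 or DN4 in turn 590, 393 and 966 genes were called. Each contrast that lacks a fraction no longer balances the order. The 48 genes without overlap keep a positive difference without DN1 by their selection, here 0.27 to 0.82, and 12 were called.

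Immunoglobulin genes were the clearest of the genes that rested on DN1. Of the 63 genes called lower, 14 were immunoglobulin genes or Jchain, which joins immunoglobulin chains in plasma cells. Iglv1, a lambda light chain segment, read 9.61, 10.54 and 10.32 in DN1, and 3.48 to 4.34 in the 9 arrays of DN2, DN3 and DN4. Jchain read 8.64, 8.77 and 8.40 in DN1 and 3.84 to 4.79 in the other 9 arrays, so the CD25-negative DN4 stood with the CD25-positive fractions. The Jchain difference was -4.15 between DN2 and DN1 and 0.08 between DN3 and DN4. Light chain and heavy chain segments are a multigene family, and transcripts of related segments can bind the same probes. The markers of plasma cells, 7 measured, had a mean level of 7.32 to 7.61 in DN1 and 6.16 to 6.50 in DN2, DN3 and DN4. Of the 7, Jchain and Ighm were called, while Mzb1, another plasma cell gene, averaged 6.08 in DN1 and 5.80 to 5.96 in the other fractions (adjusted p = 0.841). The median of the 7 markers was -0.28 between DN2 and DN1. Immunoglobulin and Jchain signal thus moved with DN1, more than the plasma cell markers as a set. Its part in the other genes that rest on DN1 was not tested. Without the immunoglobulin genes and Jchain 159 genes were called.

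Genes of the T lineage that were called followed the DN1 to DN4 order. Notch3, a Notch receptor of thymocytes, read 7.32, 7.99 and 7.46 in DN1, 9.25, 9.47 and 9.09 in DN2, 10.03, 9.88 and 9.91 in DN3, and 10.26, 10.42 and 10.05 in DN4. It rose with each fraction, and DN4 was highest. The CD25 contrast called it higher by 0.69 (adjusted p = 0.0304), but without DN1 the value was -0.64. Without DN1 the contrast no longer balances the order, so a gene that climbs steadily turns negative by construction. Dtx1, a Notch target, and Ptcra, the pre-T cell receptor alpha chain, were called higher by 0.83 and 0.57 and likewise turned to -0.59 and -1.01 without DN1. Ptcra was -0.39 without DN3 as well. These were the 3 called genes among 17 Notch receptors and targets, and Ptcra the only one among 10 pre-T cell receptor and recombination genes. Of all genes 0.789% were called. All 3 were called for the order, at 0.86, 1.00 and 1.15 per step.

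Some cytokine receptor and adhesion genes were called lower in the CD25-positive fractions, again with DN1 highest. Over all genes 0.284% were called lower and 0.505% higher. Of 23 cytokine receptors, 4 were called lower and 0 higher, namely Il18r1 (-0.98), Il4ra (-0.82), Il21r (-0.57) and Il1r1 (-0.54). Il18r1, a chain of the interleukin-18 receptor, averaged 6.74 in DN1 and 5.09, 4.65 and 4.95 in DN2, DN3 and DN4, of which the last 3 are below the background gauge. Its ligand gene Il18 fell by 0.78, with 6.87 in DN1 and 4.99, 4.68 and 4.35 in the other fractions. Of 21 homing and adhesion genes, S1pr1, the receptor for egress, Cd69, its antagonist, and Itgb7 fell. Txk and Cd69 fell among 19 T cell receptor signalling genes, and Cd226 among 19 activation and checkpoint genes. Without DN1 the differences of Il4ra, Il21r, Cd69, Itgb7 and Il18 were positive, at 0.95, 0.88, 0.27, 0.66 and 0.48, and that of Txk was 0.044. Those of Il18r1, S1pr1, Il1r1 and Cd226 stayed negative, at -0.084, -0.11, -0.28 and -0.051, and were not called. As the contrast without DN1 does not balance the order, a gene that falls steadily turns positive in it by construction.

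**Figure D5:**
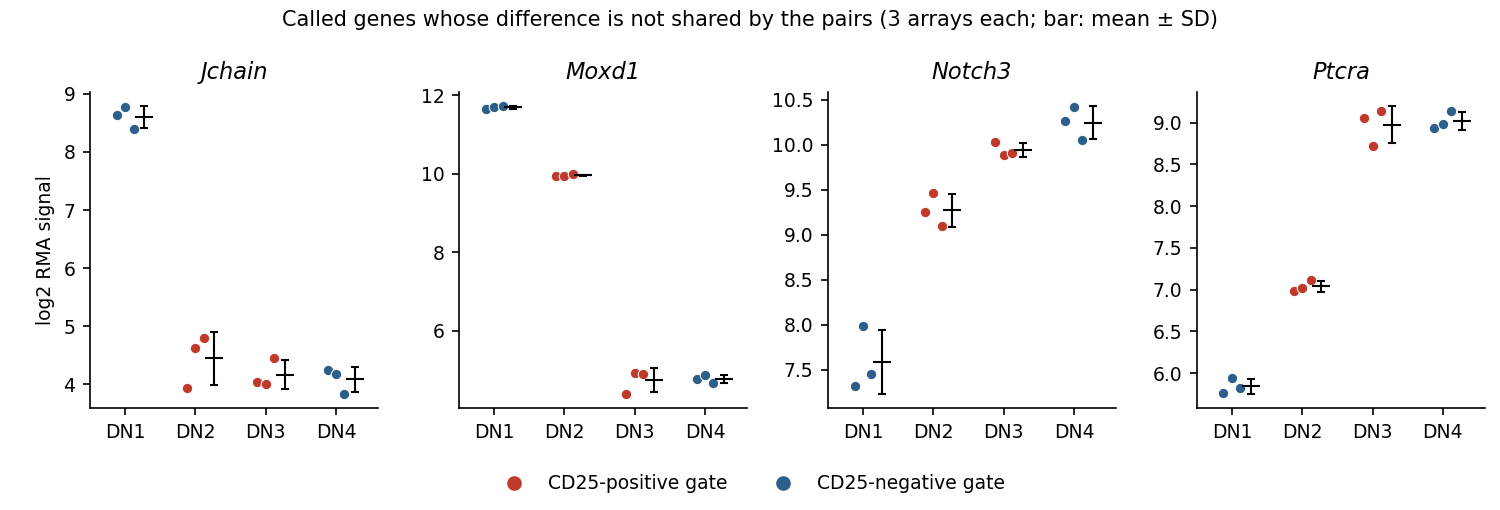
Log2 RMA signal of Jchain, Moxd1, Notch3 and Ptcra in the 3 arrays of each fraction, red for CD25-positive and blue for CD25-negative gates, with the mean ± SD. Jchain is high in DN1 only, Moxd1 in DN1 and DN2, and Notch3 and Ptcra climb from DN1 towards DN3 and DN4.

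The genes of interleukin-2 signalling were read beside Il2ra. Interleukin-2 acts through Jak kinases and STAT5, which switches on Cish, Socs and Bcl2 family genes. Il2rg, the receptor's gamma chain, and Jak3 were listed but not measured, so the counts do not cover them. Of 14 measured partners and transducers, limma called 0, and 1 had an unadjusted p under 0.05, Il2rb, the receptor's beta chain. Il2rb differed by -0.45 (95% interval -0.88 to -0.01, adjusted p = 0.567), with 9.17 in DN1 and 8.29, 8.02 and 8.02 in DN2, DN3 and DN4. Il2 itself stayed at 3.16 to 3.47, below background, in all 4 fractions. Of 35 interleukin-2 and STAT5 target genes, 0 were called higher and 1 lower, Selp, with a median of -0.08. Over all genes 0.789% were called, so lists of this size hold few calls at that share. Cish, a direct STAT5 target, averaged 5.89, 5.97, 5.92 and 5.96 from DN1 to DN4. A value that misses the threshold does not show equal levels.

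Regulatory T cells also carry CD25. Foxp3, their defining factor, averaged 4.72 in DN1, 4.54 in DN2 and 4.80 in DN3, and 4.54 in DN4, all below the background gauge. Of 15 measured markers, 1 was called higher, against 0.505% of all genes. It was Gpr83 (0.54, adjusted p = 0.0298), which climbed from 6.34 in DN1 to 8.56 in DN3 and was 8.39 in DN4. The mean level of the 15 was 5.75 to 6.15 in the CD25-positive and 5.91 to 6.09 in the CD25-negative arrays, which overlap and lie above the background gauge.

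Growth and stress genes outside the division machinery had no called member, where 0.789% of all genes were called. None of 23 MYC and ribosome biogenesis genes, 17 cell cycle inhibitors and p53 targets, 19 glycolysis and hypoxia genes, 18 immediate early and stress genes or 14 BCL2 family genes was called by limma. At an unadjusted p under 0.05 there were 1, 7, 3, 1 and 0 of them. The same held for 16 T lineage factors, 16 progenitor transcription factors, 19 type I interferon response genes and 9 MHC class II genes, with 0 called and 2, 2, 4 and 2 under an unadjusted p of 0.05. Ifit2, an interferon-induced gene, differed by 0.57 with no overlap between the gates (adjusted p = 0.0639, and 0.018 with the block). Markers of other cell types gave few calls: Igll1 (0.70) of 14 B cell genes and Cpa3 (-0.87) of 17 granulocyte and mast cell genes. None was called among the markers of macrophages, dendritic cells, erythroid cells and megakaryocytes, stroma, cytotoxic cells or innate-like T cells. Over the 16 of 30 lists with no call, 32 of 245 members had an unadjusted p under 0.05, against 8.53% of all genes.

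By likeness of pattern, the genes nearest to Il2ra included further genes of the cell cycle. Pearson correlation with Il2ra over the 12 arrays, given as a description, was highest for Gm6653 (0.957), Mxd3 (0.933), Lin54 (0.897), Cutc (0.889) and Brca1 (0.882). H2ac21, Ncaph, Arhgef39, Haspin and Ing1 followed, at 0.868 to 0.876. Mxd3, a MAX partner, averaged 6.89 in DN1, 7.35 in DN2 and 7.37 in DN3, and 6.89 in DN4. Its groups did not overlap, and its difference of 0.48 missed the threshold (adjusted p = 0.0524, 0.0248 with the block). Lin54, the DNA-binding subunit of the MuvB complex, which recognises the CHR element, averaged 7.54, 7.85, 7.85 and 7.51 (difference 0.32, adjusted p = 0.212). The lowest correlations were those of Mc3r (-0.885), which lay below background, Satb1 (-0.874), Peli1 (-0.870), Socs5 (-0.841) and Tmem182 (-0.838). Satb1, a chromatin organiser of thymocytes, averaged 10.79, 10.42, 10.39 and 10.69 from DN1 to DN4, with the gates apart in all arrays and an adjusted p of 0.187. In all, 63 genes correlated above 0.8 and 11 below -0.8.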

How the data were processed

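RNA of sorted mouse lymphoma fractions was hybridised to Affymetrix arrays. Per the submitters' processing notes, the authors made log2 RMA values with the oligo package, and versions and genome build are not given in the sources used here. The deposited log2 values, 41345 probe sets with 0 missing, were used as they are, already background-corrected and normalized together over the series, so array-wide shifts are removed. The 23521 probe sets with 1 gene symbol were kept, and 1814 with several and 16010 with none listed were left out. The brightest probe set by mean over the 18 arrays stood for each of 22180 genes, of which 1082 had several probe sets. Symbols were updated through RefSeq gene IDs, and 193 kept the platform's name.

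The CD25 comparison used, per replicate number, the mean of the DN2 and DN3 arrays against that of the DN1 and DN4 arrays, 3 values a side, with limma 3.58.1 (R 4.3.3, lmFit, then eBayes; two-sided; p adjusted by Benjamini-Hochberg across the 22180 genes, called under 0.05). Pairs, their difference and the order came from 1 limma model of 12 arrays. SE and 95% intervals are limma's, and intervals are not adjusted. Every adjusted p in the text is from limma. The number of arrays limits the precision. The code was tested on simulated data.

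Deviations of same-numbered means correlated at 0.15, 0.325 and 0.377 between the gates, and at 0.11, 0.108 and 0.273 between DN3 and DN4, all above the 0.1 set as the limit. From the data and not from the labels, the numbers were therefore taken to pair these samples, in the fits with the replicate block only. The main fits had no block, so their p-values are unpaired. Between DN1 and DN2 the correlations were 0.0396, 0.334 and 0.0717, and the numbers were not taken as pairs.

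Named genes are the up to 15 largest rises and falls among called genes without overlap of the 12 arrays, the 10 smallest p for the difference between the sides, the 10 most and 5 least like Il2ra, and members of 30 lists: the called ones and up to 4 with the smallest p. Predicted genes, small RNA genes, olfactory receptors and receptor segments were left out of ranking by size. Other genes are members of those lists or counts, or were named after their values were seen: the remaining genes without overlap, the histone and immunoglobulin genes and the genes next to Il2ra in DN3 against DN4. The members and lists were chosen with earlier results of these data known. Alternatives were a filter on low values, quantile normalization, the mean of probe sets, a trended and robust prior, the replicate block, 1 model of 12 or 18 arrays, and dropping each replicate or fraction in turn.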

Additional observations from a re-analysis of the deposited data

Results flagged for a closer look

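For 21 named genes the CD25-positive minus CD25-negative difference was not the same on both sides of CD44, by a limma test of (DN2 minus DN1) minus (DN3 minus DN4). In each of them the difference lay mainly between DN2 and DN1. Their values are log2 and come from the genes named in the text or by the lists, so they are not a count over all genes. Jchain had the largest at -4.23, followed by Ighm at -2.48 and Il18 at -2.2. Notch3 had 1.98, Dtx1 1.37, Arpp21, a lymphoid phosphoprotein gene, 1.26, and Ptcra 1.24, all positive. Among transcription and cell surface genes Arid5b had -1.88, Ms4a6c -1.78, Cd226 -1.42 and Cd69 -0.878. Among enzyme genes Pcsk1 had -1.86, Moxd1 -1.7 and Samhd1, which breaks down nucleotides, -1.59. The receptors Il7r, Il4ra, Il18r1 and Il21r had -1.46, -1.4, -1.34 and -1.07. The adhesion and homing genes Itgb7 and S1pr1 had -1.46 and -1.43, and the kinase gene Txk -1.43. Their adjusted p ran from 1.09e-06 for Jchain to 0.0319 for Il21r.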

How the results depend on the processing

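The count of called genes, 175, became 504 with the replicate block and 372 with 12 arrays in 1 model, 315, 590, 393 and 966 without the DN1, DN2, DN3 and DN4 fractions, and 39 to 137 leaving out 1 replicate on 1 side. Called genes without overlap, 51, became 84, 88, 89, 176, 174 and 780 in the same order, and 12 to 59 leaving out 1 replicate. Replication genes, 13, became 24 with the block, 22 in 1 model, 1 without DN1, 24 without DN4 and 4 to 7 leaving out 1 replicate. Mitosis genes, 9, became 20, 15, 3 without DN1, 5 without DN2, 17 without DN3 and 2 to 6 leaving out 1 replicate. DN2 against DN1, 537 genes, gave 306 with 18 arrays, 346 from its 6 arrays alone (chosen after seeing the data) and 282 to 588 leaving out 1 array. DN3 against DN4, 1 gene, gave 2 with the block and 1 to 5 leaving out 1 array. The difference between the sides, 90 genes, gave 47 with 18 arrays. The filter, quantile normalization, mean of probe sets and prior kept every count within 1.5 times. Among single genes called in either fit, signs turned only where a fraction was left out. Without DN1 they were Jchain 0.22, Arid5b 0.51, Il18 0.48, Moxd1 2.59, Samhd1 0.12, Notch3 -0.64, Pcsk1 2.01, Itgb7 0.66, Ms4a6c 0.44, Cd44 0.61, Kit 1.17, Selp 0.28, Gpr83 -0.49, Dtx1 -0.59, Ptcra -1.01, Ets2 -0.90, Cd69 0.27, Txk 0.044, Il4ra 0.95, Il21r 0.88, H2-Ab1 1.03 and Mrc1 0.96. Without DN3 they were Moxd1 1.73, Pcsk1 1.09, Kit 1.20, Gpr83 -0.12, Ptcra -0.39, Ets2 -0.74, Il4ra 0.25, Il21r 0.34, H2-Ab1 0.70 and Mrc1 0.88. A contrast without a fraction no longer balances the order, by its construction, and other causes were not tested. Over the single named genes and all alternatives, 2495 values stayed on their side of the threshold, 259 lost the call, 102 gained one and the 32 above turned sign. Of the 2495, 42 turned sign without a call in either fit, 27 of them without DN1, 8 without DN3, 4 without DN2, 2 without DN4 and 1 without CD25-negative replicate 2. Genes below the olfactory receptor gauge, such as Foxp3 and Il2, have no reliable level.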

Other observations

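Some genes were shared by DN1 and DN2 and lost in DN3 and DN4, so the CD25 contrast placed high and low fractions on both sides. Moxd1, a monooxygenase-like gene, read 11.66, 11.70 and 11.72 in DN1 and 9.95, 9.95 and 9.98 in DN2, against 4.39 to 4.92 in DN3 and DN4, which is background. Pcsk1, a prohormone convertase gene, averaged 10.48 in DN1, 8.58 in DN2 and 4.46 in DN3, and 4.50 in DN4. Both were called lower in the CD25-positive fractions (-0.88 and -0.97, limma adjusted p = 0.00464 and 0.00494). The markers of innate-like T cells, 9 measured, had 0 called members, with 2 at an unadjusted p under 0.05 and 2 called lower with the block. Their mean level was 6.35 to 6.48 in the CD25-positive arrays and 6.491 to 6.597 in the CD25-negative arrays. Zbtb16, the defining factor of such cells, averaged 6.23, 5.75, 5.24 and 5.95 from DN1 to DN4 and overlapped between gates (adjusted p = 0.107).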
